A study of Solanum lycopersicum with 29 samples.

Results

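Anthers of the ethylene-insensitive tomato mutant Never ripe were compared with anthers of the wild type (WT) after long-term mild heat (LTMH), in 3 count columns of Never ripe (replicates 1, 3 and 4) and 3 of WT (replicates 2, 3 and 4), out of 29 libraries in the series. The columns were chosen by their labels for line and temperature alone. All plants were cv. Micro-Tom and carried no transgene in these groups. They were moved into LTMH of 34°C by day and 28°C by night when they flowered, and anthers at the polarized microspore stage were taken after 8 days, with 6 anthers pooled into each replicate. Control temperature (CT) was 25°C by day and 19°C by night, and the 4 Never ripe and 4 WT libraries of CT served as a second, separate comparison of the same lines. The remaining lines, 35S:nahG and 35S:asCCD7, carry transgenes behind the constitutive 35S promoter, and their values are given only beside those of Never ripe for named genes. The labels do not say whether the mutant came from 1 plant or family or how far its genome outside the mutated gene matches WT.

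Ethylene is a gaseous hormone that regulates fruit ripening, flower senescence, abscission and responses to stress. Its receptors hold the pathway off when no ethylene is bound, and release it through the membrane protein EIN2 and the EIN3-like transcription factors when ethylene binds. Never ripe is a dominant receptor mutation of tomato, and fruit of the mutant do not ripen properly. At the polarized microspore stage the anther holds the microspores, its green outer wall layers and the tapetum, the inner layer that feeds the microspores, lays down pollen wall material and then degenerates. Because whole anthers were used, fewer cells of a type and less RNA per cell cannot be told apart in any result.

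The 6 libraries held from 32311645 to 34969009 counted reads, so 1 read was worth about 0.0297 reads per 1e6 counted reads (CPM) at the median depth. Of 35092 genes listed, 20207 passed the filter on low counts and were tested with the quasi-likelihood test of edgeR. On log2 CPM of these genes, the first principal component held 50.0% of the variance and placed the 3 Never ripe libraries from −42.6 to −37.8 and the 3 WT libraries from 37.2 to 41.0. The second held 28.4% and set Never ripe replicate 4, at −53.9, and WT replicate 4, at −22.4, apart from the other 4 libraries, at 6.63 to 34.4. Correlations between libraries lay from 0.968 to 0.990 within a line and from 0.955 to 0.969 between lines. All 5 stamen identity markers that were listed passed the filter, 0 were called by edgeR or DESeq2 or had an unadjusted p below 0.05, and their log2(FC) lay between −0.14 and 0.21. The 1 late pollen marker listed did not pass the filter.

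A gene was called a differentially expressed gene (DEG) at a Benjamini-Hochberg adjusted p under 0.05 and a fold change (FC) of at least 1.5, with log2(FC) given as Never ripe over WT. In LTMH 958 genes were DEGs, which is 4.74% of the genes tested, and 534 of them (2.64%) were higher and 424 (2.1%) lower in Never ripe. By adjusted p alone 2197 genes passed (10.9%), 1028 higher (5.09%) and 1169 lower (5.79%). By edgeR 5667 of the 20207 tested genes had an unadjusted p below 0.05. Counts at that threshold among listed genes stand beside this share. The median absolute log2(FC) of the DEGs was 1.14, and 232 of them differed at least 4-fold, 113 higher and 119 lower. The values of the lines did not overlap for any of the 958 DEGs, and did not overlap for 33.5% of all genes tested. The median log2(FC) of all tested genes was 0.01. The number of DEGs moved with every library that was left out. It was 631 without Never ripe replicate 1, 623 without Never ripe replicate 3 and 1504 without Never ripe replicate 4. Without WT replicate 2, 3 or 4 it was 471, 300 and 458.

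**Figure D1:**
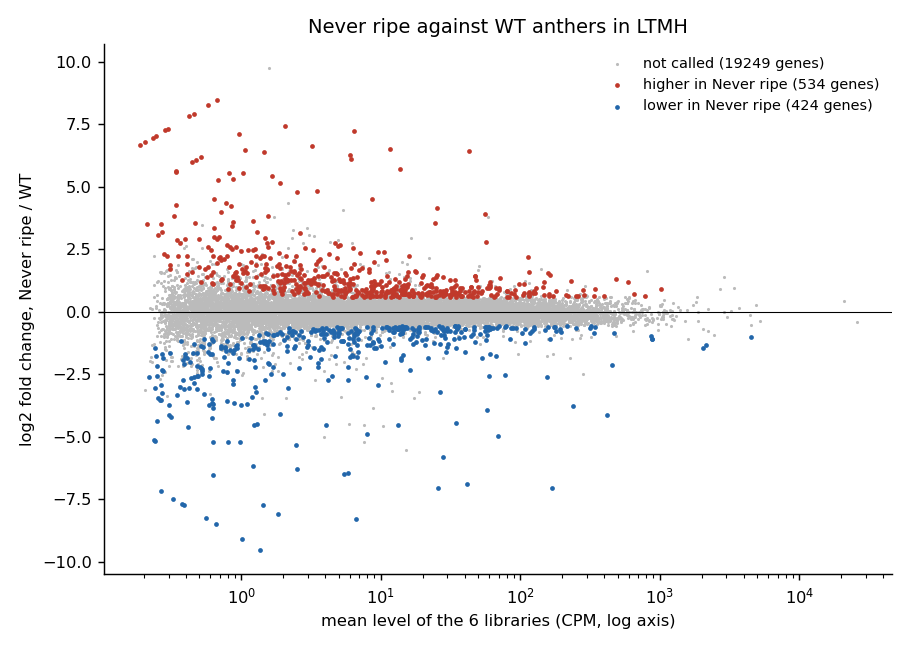
Log2 fold change of Never ripe over WT in LTMH for the 20207 tested genes (vertical axis) against the mean level of the 6 libraries in CPM (horizontal axis, log scale). Each point is a gene, red for the 534 genes called higher, blue for the 424 called lower and grey for the rest, and the DEGs with the largest fold changes lie at low and middle levels.

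Calls among listed genes of the ethylene pathway are given beside the 4.74% of all tested genes called in LTMH. At that share few calls would fall on lists this short. All 7 genes listed as ethylene receptors were tested and 0 were called with edgeR in LTMH or by DESeq2. An unadjusted p below 0.05 by edgeR was reached by 1 of the 7, beside 5667 of all 20207 tested genes. The receptor gene Solyc12g011330 was at 43.2, 37.6 and 41.5 CPM in Never ripe replicates 1, 3 and 4 and at 37.8, 40.5 and 43.3 CPM in WT replicates 2, 3 and 4. These libraries overlapped, and log2(FC) was −0.03 ± 0.07 (SE, n = 3 and 3 libraries, adjusted p = 0.823 by edgeR). The receptor gene Solyc07g056580 overlapped in the same way, with 47.7, 45.7 and 48.6 CPM against 44.3, 47.8 and 43.9 CPM (log2(FC) 0.02). Of the listed receptor genes Solyc09g075440 came nearest to the threshold, with 33.6, 35.8 and 38.4 CPM in Never ripe, all above the 26.0, 27.9 and 31.1 CPM of WT. Its log2(FC) was 0.30 ± 0.08 and its adjusted p 0.0530 by edgeR. The listed receptor gene Solyc06g053710 was at 61.1, 53.0 and 101 CPM in Never ripe and 64.5, 71.6 and 82.8 CPM in WT, with overlapping libraries in LTMH, but in CT it was called higher, at 57.2 ± 4.73 CPM against 34.5 ± 2.81 CPM (SD, n = 4 each, log2(FC) 0.82, adjusted p = 4.6e-05 by edgeR), and its interaction of line and temperature was −0.88 (adjusted p = 0.0259). The sources used here annotate only Solyc12g011330 and Solyc07g056580 as receptors. The rest of the list came from general knowledge of tomato gene families, and which identifier carries the Never ripe mutation was not established here.

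Among the 10 listed genes of ethylene signalling, 1 was called (10%, beside 4.74% of all tested genes) and it was higher in Never ripe. EIN2 (Solyc09g007870), which relays the signal from the receptors to the nucleus, was at 177, 178 and 209 CPM in Never ripe and 177, 190 and 189 CPM in WT, with overlapping libraries and a log2(FC) of −0.02. The called gene, Solyc07g008250, has no description in the sources used. It was at 47.2, 53.0 and 45.9 CPM in Never ripe against 20.6, 20.8 and 17.5 CPM in WT. Every Never ripe library was above every WT library, with a log2(FC) of 1.27 ± 0.11 and an adjusted p of 0.00301 by edgeR that stayed under the threshold without any 1 of the 6 libraries. The difference was also called in CT (log2(FC) 0.84), and against the same WT libraries of LTMH the log2(FC) of this gene was 1.68 in 35S:nahG and 1.51 in 35S:asCCD7. Of 13 genes listed for ethylene synthesis, which runs through the ACC synthases and ACC oxidases, 6 passed the filter on low counts. Of these, 0 were called by edgeR or DESeq2. An unadjusted p below 0.05 by edgeR was reached by 2 of the 6, beside 5667 of all 20207 tested genes. ACO1 (Solyc07g049530), an ACC oxidase, was at 2.37, 0.416 and 2.60 CPM in Never ripe and at 1.05, 0.696 and 0.714 CPM in WT. Only without Never ripe replicate 3 was it called (log2(FC) 1.54, adjusted p 0.0436 by edgeR). Solyc12g005940, also on this list, was called higher only without Never ripe replicate 4 (adjusted p 0.0377 by edgeR). Of 2 genes listed as outputs of ethylene signalling, from general knowledge and with no description in the sources used, 1 was tested and it was not called by edgeR or DESeq2 (unadjusted p = 0.0425 by edgeR). This gene, Solyc09g089580, was at 24.48, 14.8 and 16.6 CPM in Never ripe and 25.4, 26.0 and 23.9 CPM in WT, so that Never ripe replicate 1 lay with WT, and without that library it was called lower (log2(FC) −0.72, adjusted p = 0.0189 by edgeR). In CT it was called lower in Never ripe, at 10.6 ± 0.39 CPM against 32.6 ± 6.92 CPM (log2(FC) −1.52, adjusted p = 4.73e-05), and its interaction was 1.07 (adjusted p = 0.0129).

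Genes for the capture of light were higher in Never ripe than in WT under LTMH. Light-harvesting proteins bind chlorophyll a and b and pass the energy to the photosystems. Of 23 genes on the list for photosynthetic light harvesting, 16 were called higher and 0 lower in Never ripe, beside 2.64% of all tested genes called higher. All 23 had a positive log2(FC), with a median of 0.90 and a range of 0.12 to 2.62. The study drew this list from genes that 35S:nahG expressed above WT under LTMH. Its direction against the same 3 WT libraries is therefore not independent, whereas the CT libraries had no part in the choice. The summed level of the 23 genes was 6481, 7026 and 6613 CPM in Never ripe and 3883, 3943 and 3317 CPM in WT. The lowest Never ripe library was far above the highest WT library. The number called was 18 without Never ripe replicate 4 and 11 without WT replicate 3, and the other libraries gave between these when left out.

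CAB13 (Solyc12g011450), a chlorophyll a-b binding protein, was at 223, 261 and 239 CPM in Never ripe and at 95.5, 89.9 and 73.4 CPM in WT. The log2(FC) was 1.44 ± 0.13 (adjusted p = 0.00337 by edgeR). Solyc07g063600, a second gene described as chlorophyll a-b binding protein 13, was at 175, 189 and 155 CPM against 62.2, 62.5 and 45.9 CPM, with a log2(FC) of 1.57 ± 0.16. The largest change on the list was in the Cab-5 gene Solyc12g006140, at 7.95, 10.5 and 7.27 CPM in Never ripe and 1.65, 1.62 and 0.803 CPM in WT. Its log2(FC) was 2.62 ± 0.31. Solyc06g069730, another chlorophyll a-b binding protein gene, followed with 2.37 ± 0.20. Each of these 4 genes was still called without any 1 of the 6 libraries. For all 4 the difference had nearly the same size in 35S:nahG and 35S:asCCD7, which share the 3 WT libraries. CAB13 gave log2(FC) of 1.55 and 1.53 there, and Solyc12g006140 gave 2.75 and 2.67.

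In CT the same genes stood the other way around. The summed level of the light-harvesting genes was 4892 to 5973 CPM in the 4 Never ripe libraries of CT and 7845 to 8204 CPM in the 4 WT libraries. By adjusted p alone 20 of the 23 genes were lower and 1 was higher in Never ripe, beside 13.1% and 14.2% of all genes, while with the fold threshold 6 were called lower and 1 higher, beside 4.32% and 6.29%. The median log2(FC) was −0.39 in CT. CAB13 was at 324 ± 13.1 CPM in WT CT (SD, n = 4) and 86.3 ± 11.5 CPM in WT LTMH (n = 3), and at 186 ± 28.4 CPM in Never ripe CT (n = 4) and 241 ± 19.3 CPM in Never ripe LTMH (n = 3). The interaction of line and temperature, which asks whether the difference between the lines was itself different between the temperatures, was called for 20 of the 23 genes, with a median of 1.34 on the log2 scale, all more positive in LTMH, beside 2.87% of all genes tested for it. It uses the WT libraries of LTMH on which the list was chosen, so its count and sign are not independent of that choice. For CAB13 it was 2.17 (adjusted p = 5.24e-06) and for Solyc12g006140 3.80 (adjusted p = 4.29e-05 by edgeR).

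**Figure D2:**
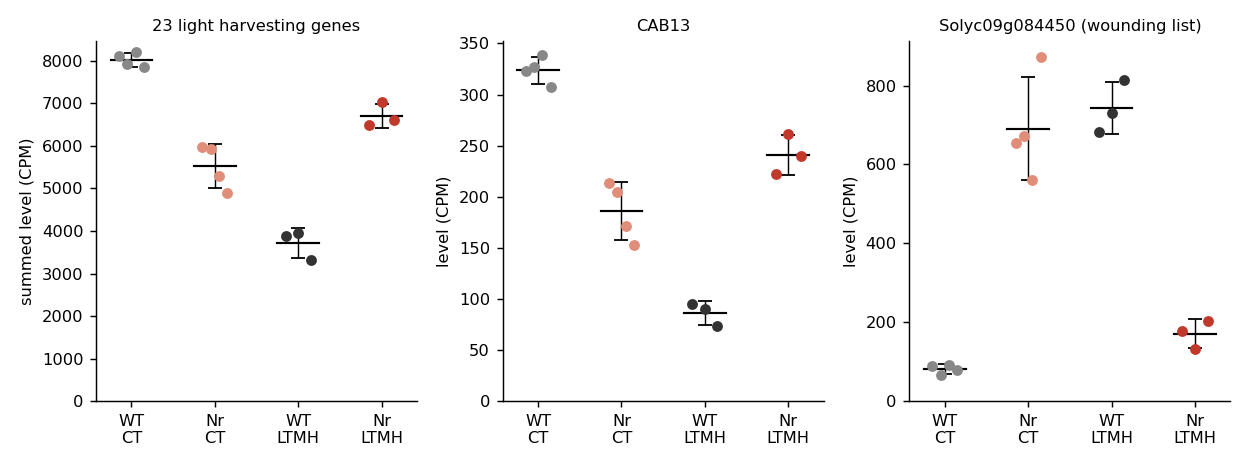
Levels in CPM (vertical axes, from 0) of the 23 light-harvesting genes summed, of CAB13 and of Solyc09g084450 in the 4 groups of WT and Never ripe (Nr) at CT and LTMH. Points are libraries, long bars are means and short bars mark 1 SD, and in each panel the order of the lines is reversed between CT and LTMH.

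Chlorophyll synthesis went with light harvesting. Of 10 listed genes, 3 were called higher and 0 lower in Never ripe in LTMH, beside 2.64% of all genes called higher, with a median log2(FC) of 0.40. This list too was drawn from genes higher in 35S:nahG than in the same WT libraries. Solyc04g015750, described as a magnesium chelatase, the enzyme that inserts magnesium into the chlorophyll precursor, was at 194, 225 and 198 CPM in Never ripe and at 95.6, 94.0 and 75.8 CPM in WT (log2(FC) 1.18 ± 0.12, adjusted p = 0.00498 by edgeR). The protochlorophyllide oxidoreductase genes Solyc12g013710 and Solyc10g006900, for a light-dependent step of the pathway, had log2(FC) of 1.06 and 0.81. Calls of these last genes were fragile. Solyc12g013710 was called only when Never ripe replicate 4 was the library left out, with adjusted p up to 0.0816, and Solyc10g006900 only without Never ripe replicate 3 or 4, with adjusted p up to 0.0761 by edgeR. In CT 9 of the 10 genes were lower by adjusted p alone and 3 were called lower, beside 13.1% and 4.32% of all genes. Of 10 genes for electron transport in photosystem I, from a list drawn in the same way, 2 were called higher, beside the same 2.64%. These were Solyc09g090557, which encodes PROTON GRADIENT REGULATION 5, a protein of cyclic electron flow (log2(FC) 0.83 ± 0.11), and Solyc07g066150, which encodes subunit V of the reaction center (0.63 ± 0.08). Solyc09g090557 was not called without WT replicate 3 (adjusted p = 0.0590) and Solyc07g066150 was not called without WT replicate 4, where its log2(FC) was 0.57.

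Genes of sugar metabolism were called in both directions. Of 129 genes of carbohydrate metabolism, 110 were tested, 9 were called higher and 4 lower (11.8%, beside 4.74% of all tested genes), and the median log2(FC) was 0.07. CFBP1 (Solyc10g086730), of the fructose bisphosphatase family that acts in the synthesis of sugar from photosynthetic products, was at 142, 147 and 179 CPM in Never ripe and 93.4, 92.6 and 88.7 CPM in WT (log2(FC) 0.72 ± 0.08). The triosephosphate isomerase gene Solyc06g005490, on the list for glucose metabolism, which was also drawn from genes higher in 35S:nahG, was at 68.5, 66.1 and 70.4 CPM against 35.8, 37.1 and 39.7 CPM (0.83 ± 0.05), and was higher in CT too (1.28). Both calls held without any 1 library. CFBP1 too was named from the list for glucose metabolism, so its direction against the same WT libraries is not independent of that choice.

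Inhibitors of the invertases, which cleave sucrose, were called in both directions. INVINH1 / CIF1 (Solyc12g099200), an inhibitor of cell wall invertase, was at 16.8, 18.0 and 22.9 CPM in Never ripe and 7.18, 9.46 and 10.8 CPM in WT, with a log2(FC) of 1.03 ± 0.17. VIF (Solyc12g099190), an inhibitor gene of the same family whose identifier directly precedes it in number, was lower, at 4.46, 2.74 and 2.97 CPM against 12.8, 8.96 and 8.98 CPM, with a log2(FC) of −1.64 ± 0.25. Neither was called without WT replicate 3 (adjusted p = 0.0738 and 0.0546 by edgeR). VIF was near 0 in CT, at a mean of 0.566 CPM in Never ripe and 0.495 CPM in WT, and its interaction was −1.91 (adjusted p = 0.0132). LIN9 (Solyc08g079080), of the vacuolar invertase family, was lower (log2(FC) −2.04 ± 0.44), but was called only without Never ripe replicate 1 or 4 when libraries were left out, with adjusted p up to 0.123. UGP1 (Solyc05g054060), a UDP-glucose pyrophosphorylase, had a log2(FC) of −1.16 ± 0.12 and stayed called throughout. Among 57 tested genes of carbohydrate transport 0 were called higher and 3 lower (5.26%, beside 4.74% of all tested genes). By adjusted p alone 4 were higher and 4 lower. SlSWEET1c (Solyc04g064630), SlSTP5 (Solyc01g010530) and SlNEC1 (Solyc09g074530), which belong to families of sugar transporters, had log2(FC) of −1.38, −0.80 and −0.65. SlSWEET1c kept its call only without Never ripe replicate 4 or WT replicate 2, and SlSTP5 and SlNEC1 kept theirs only without Never ripe replicate 4, with adjusted p of up to 0.127, 0.130 and 0.132.

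Some genes on the list for response to wounding were called lower in Never ripe under LTMH, and most were called higher in CT. Of 13 listed genes, 11 were tested, 4 were called lower and 0 higher, beside 2.1% of all genes called lower, and the median log2(FC) was −0.72. The study drew this list from genes lower in 35S:nahG than in the same WT libraries, so neither this direction nor the interaction, which uses those libraries, is independent of the choice. In CT, whose libraries had no part in it, 7 of 10 tested genes were called higher, beside 6.29% of all genes, with a median log2(FC) of 1.54, and 8 had a called interaction, all more negative in LTMH, beside 3.2% of all genes. Solyc09g084450 was at 178, 132 and 205 CPM in Never ripe and at 684, 729 and 814 CPM in WT in LTMH, with a log2(FC) of −2.16 ± 0.15 (adjusted p = 0.00190 by edgeR). In CT its mean was 690 ± 130 CPM in Never ripe and 82.2 ± 12.1 CPM in WT (SD, n = 4 each), with a log2(FC) of 3.16. The interaction was −5.30 (adjusted p = 6.86e-07). The mean of WT was thus higher in LTMH than in CT and that of Never ripe lower. Solyc09g089530 was at 34.7, 38.7 and 27.6 CPM in Never ripe and at 327, 147 and 864 CPM in WT, so that WT itself spread widely, and its log2(FC) was −3.76 ± 0.65. Left out in turn, Never ripe replicate 1, Never ripe replicate 3 and WT replicate 2 each took the number of wounding genes called from 4 to 2, as did WT replicate 3, while without Never ripe replicate 4 it was 5.

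Of the 11 wounding genes tested, 5 were JAZ genes, which encode repressors of jasmonate signalling and are themselves induced by jasmonate. In LTMH 0 of 10 tested genes of the JAZ and COI1 list were called by edgeR, 9 of 10 had a negative log2(FC) and the median was −0.33. An unadjusted p below 0.05 by edgeR was reached by 0 of the 10, beside 5667 of all 20207 tested genes, and DESeq2 called 0. The summed level was 432, 315 and 847 CPM in Never ripe and 658, 509 and 695 CPM in WT, and the lines overlapped, with Never ripe replicate 4 the highest library of all. Without that library JAZ3 (Solyc03g122190) and JAZ4 (Solyc12g049400) were called lower, with log2(FC) of −1.29 and −1.31 and adjusted p of 0.0324 and 0.0493. In CT the sums were 669 to 776 CPM in Never ripe and 216 to 255 CPM in WT, with no overlap, and 7 of 9 genes tested were called higher, beside 6.29% of all genes, with a median log2(FC) of 1.39. JAZ1 (Solyc07g042170) was at 81.1, 45.2 and 195 CPM in Never ripe and 132, 84.0 and 125 CPM in WT in LTMH (log2(FC) −0.15 ± 0.49). In CT it lay between 161 and 201 CPM in Never ripe and between 38.4 and 52.6 CPM in WT, for an interaction of −2.28 (adjusted p = 0.00951 by edgeR). COI1 (Solyc05g052620), the jasmonate receptor, was at 50.8, 48.6 and 55.3 CPM against 45.0, 47.0 and 49.1 CPM and was called in neither condition.

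The 5 DEGs with the most reads among those lower in Never ripe were all higher in CT by adjusted p. Solyc03g098790 was at 3445, 2428 and 3292 CPM in Never ripe and 5041, 5310 and 7449 CPM in WT in LTMH, with a log2(FC) of −0.999 ± 0.20. In CT it was at 3338 ± 641 CPM in Never ripe and 562 ± 80.8 CPM in WT, with a log2(FC) of 2.66. The Never ripe means were thus close to each other at both temperatures, at 3055 ± 548 CPM in LTMH (SD, n = 3), while the WT mean was 5933 ± 1320 CPM in LTMH. The change of each line with temperature was not tested. Solyc09g084465, with 1222, 832 and 1254 CPM against 2601, 2580 and 3698 CPM, gave log2(FC) of −1.47 in LTMH and 3.66 in CT. Solyc01g006400 gave −1.33 and 2.02 and Solyc11g022590 gave −1.11 and 3.37. The sources used here give none of these 4 a description. The fifth, Solyc06g005940, encodes a protein disulfide-isomerase, which helps proteins fold in the endoplasmic reticulum. It was at 625, 593 and 479 CPM in Never ripe and 1194, 1165 and 1215 CPM in WT (log2(FC) −1.11 ± 0.13), with 0.52 in CT, which did not reach the fold threshold. Solyc09g084465 and Solyc06g005940 stayed called without any 1 library. Solyc03g098790 and Solyc01g006400 were called only when the library left out was Never ripe replicate 4, with adjusted p up to 0.0823 and 0.0872, and Solyc11g022590 was not called without WT replicate 3 or 4 (up to 0.0763 by edgeR).

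Across all DEGs the comparison at CT gave both shared and opposite differences. In CT 2118 of 19974 tested genes were DEGs (10.6%). Of the 958 DEGs of LTMH, 875 were tested in CT, and 367 were DEGs there in the same direction, 195 higher and 172 lower. These are 38.3% of the DEGs of LTMH and 17.3% of those of CT, and the comparisons share no library. A further 54 were DEGs in the opposite direction and 537 were tested but not called in CT or were not tested there. Of the 875, 669 (76.5%) had the same sign. The share with the same sign among all genes tested at both temperatures was not computed, so the 76.5% has no reference. The interaction was called for 1268 of 20895 genes (6.07%), 599 more positive (2.87%) and 669 more negative (3.2%) in LTMH, and for 276 (28.8%) of the DEGs of LTMH, from which it is not independent.

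**Figure D3:**
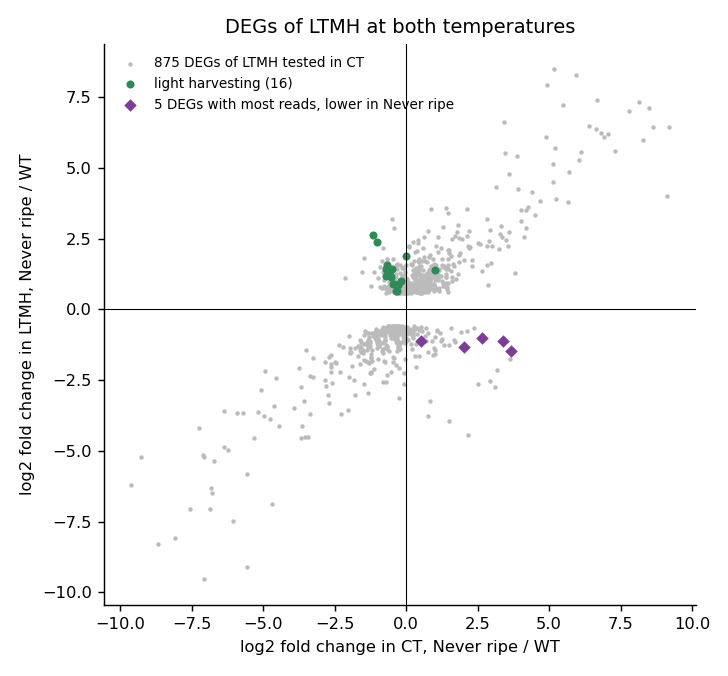
Log2 fold change of Never ripe over WT in LTMH (vertical axis) against that in CT (horizontal axis) for the 875 DEGs of LTMH that were tested in CT. Grey points are genes, green points the 16 called light-harvesting genes and purple diamonds the 5 DEGs with the most reads among those lower in Never ripe, all of which have a positive value in CT.

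The largest differences between the lines were near-complete and mostly present at both temperatures. The 10 lowest and 10 highest log2(FC) were taken among DEGs with a mean of at least 1 CPM in the higher line. ROC5 (Solyc06g035940), a homeobox-leucine zipper gene of a family with roles in the epidermis in Arabidopsis, was at 0.200, 4.19 and 3.44 CPM in Never ripe and at 323, 327 and 357 CPM in WT, with a log2(FC) of −7.05. It was at 1.17 ± 1.14 CPM in Never ripe CT and 197 to 286 CPM in WT CT, and its log2(FC) was −9.24 in 35S:nahG and −7.74 in 35S:asCCD7. Solyc06g005930 was at 0.0572, 1.25 and 0.867 CPM against 118, 54.8 and 74.2 CPM (−6.88), with −4.71 in CT. Solyc04g081670 had 0 reads in each Never ripe library and 90, 104 and 82 reads in WT, so it was at least 91.5-fold lower, against a floor of 3 reads over the 3 Never ripe libraries. On the same floor Solyc03g065230, described as beta-galactosidase 15-like, was at least 68.3-fold lower, Solyc09g065525 at least 44.1-fold and Solyc03g059247 at least 37.4-fold.

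Among the genes high in Never ripe, Solyc12g006570, a sesquiterpene synthase gene from the pathway of volatile terpenes, was at 95.8, 32.7 and 126 CPM in Never ripe and 0.718, 0.493 and 1.61 CPM in WT, with a log2(FC) of 6.44. In CT it was at 245 ± 45.0 CPM against 0.657 ± 0.486 CPM. Solyc07g061750 was at 21.9, 23.2 and 24.4 CPM against 0.209, 0.174 and 0.357 CPM (6.49), and its neighbour in number, Solyc07g061760, at 11.7, 11.2 and 15.5 CPM against 0.0898, 0.0290 and 0.119 CPM (7.23). Solyc03g093530 and Solyc05g012827 had 0 reads in WT and were at least 45.3-fold and 39.2-fold higher. Of the genes in this and the preceding paragraph each kept its call without any 1 library.

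For nearly all of these extreme genes the transgenic lines also lay far from the same WT libraries. Of the 10 highest genes Solyc06g050110 was not tested in the transgenic lines, and the others had fitted log2(FC) of 5.80 to 8.56 in 35S:nahG and 4.57 to 8.65 in 35S:asCCD7. Solyc07g061750 had 6.49 and 6.21, near its 6.49 in Never ripe, and Solyc12g006570 had 5.80 and 4.57. Of the 10 lowest, Solyc09g020190 apart, the fitted log2(FC) was −14.50 to −7.31 in 35S:nahG and, with Solyc09g065525 (0.11) also apart, −11.39 to −5.31 in 35S:asCCD7. Solyc04g081670 had −9.57 and −6.82 and Solyc05g010367 had −11.86 and −7.67. Fitted values of genes with no reads in a line depend on the prior count, and because the WT libraries are shared, a value of WT itself enters all 3 comparisons. Solyc09g020190 was at 0, 0.684 and 0.495 CPM in Never ripe and 45.7, 50.4 and 56.7 CPM in WT (log2(FC) −7.06, and −6.86 in CT), while it was at 53.0 ± 8.26 CPM in 35S:nahG (SD, n = 3) and 58.3 ± 3.70 CPM in 35S:asCCD7 (n = 4). Among other named genes the values of the lines were alike for some and unlike for others. The difference between Never ripe and the transgenic lines was not tested. MPK3 had log2(FC) of 2.79 in Never ripe, 2.39 in 35S:nahG and 2.28 in 35S:asCCD7. CFBP1 had 0.72, 0.84 and 0.89 in the same order, and Solyc07g043620 had 0.98, 1.05 and 0.85. CFBP1 was named from a list drawn from genes higher in 35S:nahG, so its likeness to that line is not independent of the choice. Values further apart were found for the next 2 genes. The glutathione S-transferase gene Solyc09g074850 was at 2.17, 2.17 and 1.98 CPM in Never ripe against 9.75, 9.46 and 9.49 CPM in WT (−2.22 ± 0.12), with −2.28 in 35S:nahG and 0.54 in 35S:asCCD7. The kinase gene Solyc01g006730, described as calcium-dependent protein kinase 20-like, had log2(FC) of 1.76 in Never ripe, −0.10 in 35S:nahG and 0.22 in 35S:asCCD7.

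DEGs lay next to each other along the chromosomes in several places. Of 948 DEGs with a Solyc identifier on the 12 chromosomes, 234 (24.7%) had a DEG as a direct neighbour among the tested genes in identifier order. Of all tested genes 4.74% were called. The share of all tested genes with a DEG as neighbour was not computed, so the 24.7% has no reference. Between 3.25% of tested genes on chromosome 1 and 6.53% on chromosome 4 were called. Windows of 20 consecutive tested genes held a median of 1 DEG. The window with the most, from Solyc04g081500 to Solyc04g081740, held 13, of which 4 were higher and 9 lower, and 10 of them were DEGs in the same direction in CT. A run of 6 tested genes in it, from Solyc04g081630 to Solyc04g081690, had log2(FC) between −9.54 and −5.16 in LTMH, directly after Solyc04g081600 and Solyc04g081610, which were higher by 6.66 and 7.41. Heat shock genes lie here too. The DnaJ-C gene Solyc04g081530, of the HSP40 co-chaperone family, was at 11.6, 7.94 and 16.3 CPM in Never ripe and between 1.51 and 3.30 CPM in WT (2.35 ± 0.36), but was not called without WT replicate 2 or 3 (adjusted p up to 0.0625). Hsp90-7 (Solyc04g081570) was at 547, 525 and 709 CPM against 1134, 1132 and 1176 CPM (−0.99 ± 0.11). Its mean in LTMH was 595 CPM in 35S:nahG and 659 CPM in 35S:asCCD7. Solyc04g081530 had log2(FC) of 1.82 and 2.91 in these lines against the same WT libraries. Solyc04g081660, in the run of 6, had means of 0 and 0.00762 CPM there, against 3.64 CPM in WT. For these genes the transgenic lines thus lay on the same side of WT as Never ripe. Whether the lines differ from each other here was not tested.

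**Figure D4:**
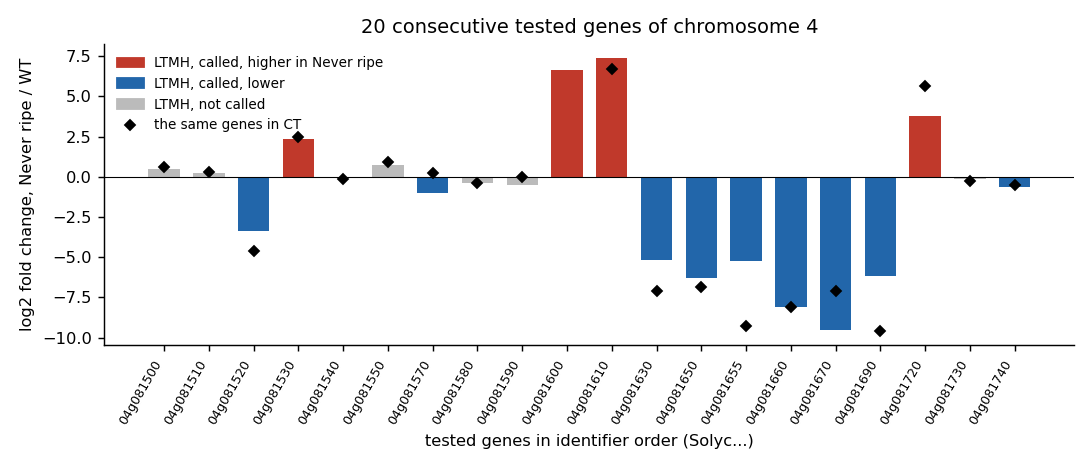
Log2 fold change of Never ripe over WT (vertical axis) for 20 consecutive tested genes of chromosome 4 in identifier order (horizontal axis, identifiers without "Solyc"). Bars are LTMH, red for called higher, blue for called lower and grey for not called, diamonds are CT, and the 6 genes from Solyc04g081630 to Solyc04g081690 are lower at both temperatures.

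The window on chromosome 7 from Solyc07g008410 to Solyc07g008630 held 12 DEGs, 8 higher and 4 lower, and 8 of them were DEGs in the same direction in CT. Solyc07g008560 was at 53.8, 47.0 and 42.7 CPM in Never ripe against 2.51, 2.38 and 3.03 CPM in WT (log2(FC) 4.14, and 4.38 in CT), and Solyc07g008630 was at 0.200, 0.0892 and 0.0309 CPM against 2.48, 2.64 and 2.29 CPM (−4.50). The window on chromosome 6 from Solyc06g005840 to Solyc06g007120 held 11, including Solyc06g005930 and Solyc06g005940, and 6 were shared with CT. Another on chromosome 6, from Solyc06g005250 to Solyc06g005530, held 9, including the triosephosphate isomerase gene Solyc06g005490, and 7 were shared with CT. The window on chromosome 9 from Solyc09g083410 to Solyc09g089670 differed from these, since its 8 DEGs were all lower in LTMH and 0 were DEGs in the same direction in CT. Of its members, Solyc09g083440, Solyc09g083445, Solyc09g084450, Solyc09g084460, Solyc09g084465 and Solyc09g089505 had log2(FC) from 1.67 to 3.66 in CT and from −2.73 to −1.09 in LTMH. Neighbours with near-identical sequence can exchange reads in the counting, and this was not tested.

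Heat shock factors and chaperones were called more often as higher with the fold threshold, but not by adjusted p alone. Of the genes listed for the heat stress response, 179 were tested, 10 were higher and 3 lower (7.26%, beside 4.74% of all tested genes), and the median log2(FC) was 0.03. By adjusted p alone 18 were higher and 19 lower, and 93 had a positive and 86 a negative log2(FC). HsfA6b (Solyc06g053960), a heat shock transcription factor, was at 1.86, 2.26 and 1.55 CPM in Never ripe and 0.479, 0.406 and 0.506 CPM in WT (log2(FC) 1.99 ± 0.26), and was not called without WT replicate 3 (adjusted p = 0.0546). HsfA6a (Solyc09g082670), with 20, 20 and 10 reads against 1, 3 and 0 reads, had a log2(FC) of 3.50 and was called only with Never ripe replicate 4 left out, with adjusted p up to 0.114. The DnaJ-C gene Solyc09g092260 was at 8.58, 9.10 and 12.6 CPM in Never ripe and 1.65, 3.22 and 3.06 CPM in WT in LTMH (1.89 ± 0.27), but at 1.86 and 1.96 CPM on average in CT, for an interaction of 1.89 (adjusted p = 0.00209). HsfA9 (Solyc07g040680) was at 4.40, 5.83 and 5.39 CPM against 1.32, 2.20 and 1.22 CPM (1.68 ± 0.26), with a log2(FC) of −0.66 in CT. HsfA9 and Hsp90-7 fall outside the rule for named genes and were chosen after their values were seen. The number of DEGs on this list was 4, 3 and 8 without WT replicate 2, 3 or 4 and between 10 and 17 without a Never ripe library, beside 13.

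Auxin genes were called in both directions. Of 25 genes for AUX/IAA repressors and TIR1/AFB receptors, 21 were tested, 4 were higher and 1 lower (23.81%, beside 4.74% of all tested genes). IAA16 (Solyc01g097290) was at 26.1, 27.7 and 27.9 CPM in Never ripe and 15.6, 16.7 and 14.8 CPM in WT, with a log2(FC) of 0.75 ± 0.07 (adjusted p = 0.00371 by edgeR). In CT it was the reverse, with 22.2 ± 2.97 CPM in Never ripe and 42.4 ± 4.68 CPM in WT, and the interaction was 1.61 (adjusted p = 8.1e-06). IAA35 (Solyc07g008020), IAA1 (Solyc09g083280) and IAA26 (Solyc03g121060) had log2(FC) of 1.85, 0.68 and −1.10. IAA35 and IAA1 were called only with Never ripe replicate 4 left out and IAA26 lost its call whichever library was left out, with adjusted p up to 0.122, 0.0886 and 0.148. Solyc07g043620, described as auxin response factor 6-like, was at 79.7, 76.3 and 87.7 CPM against 41.0, 39.7 and 39.4 CPM (0.98 ± 0.06), and its call held without any 1 library.

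For abscisic acid, a stress hormone, 0 of 14 tested genes of metabolism, 9 higher and 2 lower of 260 for response, and 6 higher and 0 lower of 85 for signalling were called. The shares for response and signalling were 4.23% and 7.06%, beside 4.74% of all tested genes. MPK3 (Solyc06g005170), a mitogen-activated protein kinase of stress signalling, was at 124, 144 and 30.3 CPM in Never ripe and 16.8, 14.1 and 11.5 CPM in WT (log2(FC) 2.79 ± 0.58, adjusted p = 0.0310 by edgeR). Its Never ripe libraries were all above WT, with replicate 4 far below the other Never ripe libraries, and the gene was called only when that library was left out (adjusted p up to 0.126). In CT it was at 154 ± 9.48 CPM against 21.3 ± 2.56 CPM. In the brassinosteroid lists 0 of 25 metabolism genes, 1 of 30 response genes (3.33%) and 3 of 45 signalling genes (6.67%) were called. The transcription factor gene Solyc10g076390, described as BRASSINAZOLE-RESISTANT 2-like, was lower (−1.82 ± 0.34) but held only without Never ripe replicate 4 (adjusted p up to 0.0926). The HERK 1 receptor-like kinase genes went opposite ways, Solyc11g072910 with −1.59 ± 0.24 and Solyc06g005230 with 0.80 ± 0.11. The first was not called without WT replicate 3 or 4 and the second without WT replicate 3, each with adjusted p of 0.0535. Of 16 auxin and 20 cytokinin metabolism genes 0 were called. At an unadjusted p below 0.05 by edgeR there were 7 of 14 genes for abscisic acid metabolism and 10 of 25 for brassinosteroid metabolism. There were 5 of 16 for auxin and 4 of 20 for cytokinin metabolism, beside 5667 of all 20207 tested genes. In the same order DESeq2 called 0, 3, 1 and 1.

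Genes for maturation of the large subunit rRNA, initiation of DNA replication and protein refolding passed the adjusted p more often than the fold threshold. For rRNA maturation 3 of 14 tested genes were called lower and 11 were lower by adjusted p alone, beside 2.1% and 5.79% of all genes, and all 14 had a negative log2(FC), with a median of −0.39. Solyc09g011420, of a ribosomal protein family, was at 79.4, 72.0 and 68.2 CPM in Never ripe and 108, 117 and 111 CPM in WT (−0.65 ± 0.08), and was not called without Never ripe replicate 4 or WT replicate 3. For initiation of DNA replication 1 of 12 was called lower and 7 were lower by adjusted p alone. In CT 2 were called lower and all 12 were lower by adjusted p alone, beside 4.32% and 13.1% of all genes. The medians were −0.46 in LTMH and −0.49 in CT. Of 11 genes for protein refolding 0 were called with the fold threshold in edgeR and 8 were lower by adjusted p alone, while DESeq2 called 0. By edgeR 10 had an unadjusted p below 0.05, beside 5667 of all 20207 tested genes. These 3 lists were drawn by the study from genes lower in 35S:nahG than in the same WT libraries.

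Tapetum markers varied widely between the WT libraries. Of 7 listed tapetum markers 5 were tested and 0 were called in LTMH by edgeR, with a median log2(FC) of −3.22. By unadjusted p below 0.05 edgeR passed 3 of these 5, beside 5667 of all 20207 tested genes, and DESeq2 called 2. AMS (Solyc08g062780), a tapetum transcription factor, was at 366, 412 and 51.4 CPM in Never ripe and 338, 239 and 146 CPM in WT, lowest in replicate 4 of each line. CYP704B1 (Solyc01g010900), for pollen wall synthesis, was at 2.77, 6.78 and 1.52 CPM in Never ripe and 22.0, 78.4 and 1.93 CPM in WT, so that WT replicate 4 lay with the Never ripe libraries. CYP703A2 (Solyc10g009390), of the same pathway, was at 1.92, 4.46 and 2.38 CPM against 23.4, 70.3 and 1.67 CPM, and WBC27 (Solyc07g065780), a transporter gene of the tapetum, at 0.257, 0.208 and 0.248 CPM against 2.96, 19.5 and 0.476 CPM. Without WT replicate 4, CYP703A2 (log2(FC) −4.03, adjusted p = 0.0364) and WBC27 (−5.56, adjusted p = 0.0423) were called lower in Never ripe. MS1 (Solyc04g008420), another tapetum regulator, was at 0.858, 1.01 and 0.124 CPM against 3.35, 4.99 and 0.0893 CPM. The libraries of the lines did not overlap for WBC27, as for 33.5% of all genes tested. The summed level of the 7 listed genes was 55.9 to 425 CPM in Never ripe and 150 to 414 CPM in WT, most of it AMS. Without AMS it was 5.95, 12.7 and 4.52 CPM in Never ripe and 52.1, 174 and 4.52 CPM in WT, so that WT replicate 4 lay with Never ripe and the other WT libraries far above. Replicate 4 was the lowest library of each line in both sums and is the library that the second principal component sets apart. The part of these genes in the differences between the lines was not tested. Of 217 tested genes in the study's wider list for pollen, 2 were called higher and 4 lower (2.76%, beside 4.74% of all tested genes).

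**Figure D5:**
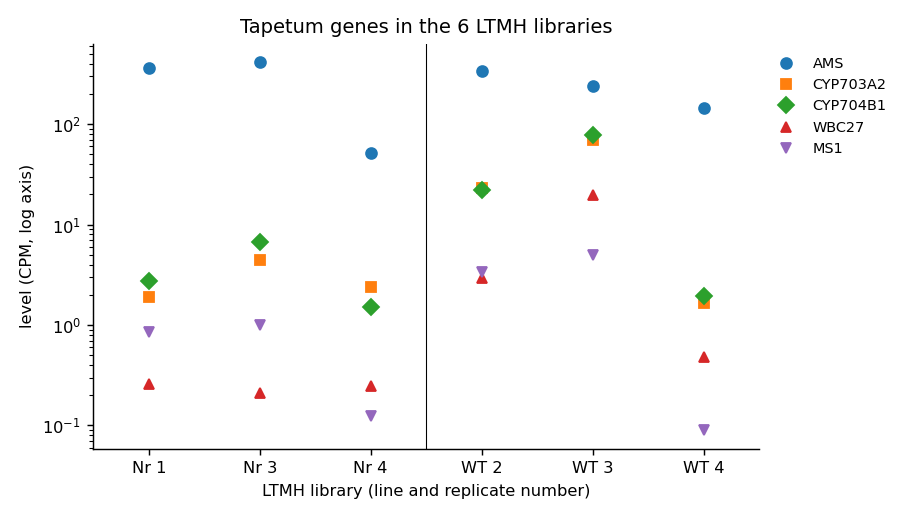
Level in CPM (vertical axis, log scale) of 5 tapetum genes in the 3 Never ripe (Nr) and 3 WT libraries of LTMH (horizontal axis). Each symbol is a gene and each column a library, and WT replicate 4 lies near the Never ripe libraries for CYP703A2, CYP704B1 and MS1.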

How the data were processed

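RNA of pooled tomato anthers was sequenced from poly(A)-selected libraries made with a kit that does not mark strand, so reads of overlapping antisense genes cannot be told apart. The authors filtered the reads, aligned them with HISAT2 2.0.5 to the tomato reference and assigned them to genes with featureCounts 1.5.0-p3. The deposited counts are whole reads per gene, not normalized, and were used as deposited. The deposited FPKM table was not used. Libraries were assigned to line, temperature and replicate by their labels, and 0 columns were left unassigned. The study's methods give 4 replicates for each group, and the 3 LTMH libraries of each line held here were used. The methods call the replicates biological for the genotypes that the study reports, which do not include Never ripe. No source says whether replicates came from separate plants. The p-values compare the difference between lines with the spread between these libraries.

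The tests were run with edgeR 4.0.16 in R 4.3.3. The 1167 rows without a Solyc identifier were kept in the fit and left out of the positions. Genes were filtered with filterByExpr (minimum count 10), scaled by TMM and tested with glmQLFit and glmQLFTest, two-sided, each pair of groups on its own libraries, and p was adjusted by Benjamini-Hochberg over the genes tested, with a threshold of 0.05 and a fold of 1.5. The biological coefficient of variation was 0.179 in LTMH, 0.152 in CT and 0.166 in the interaction fit. Fold changes against 0 reads were set on a floor of 3 reads over the group. The code was tested on simulated data. Plots were made in Python 3.11.15 (matplotlib 3.10.9).

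The libraries were chosen by their labels alone, but this choice, the gene lists and the rules were made with earlier results of these data known. Lists came from the study's supplementary gene sets, from its GO tables where a term's genes were held in full, and from general knowledge of gene families (ethylene, stamen, tapetum, flower organ markers). Lists given by name patterns were not applied. Named genes were the ethylene lists, the 10 highest and 10 lowest DEGs with a mean of at least 1 CPM, up to 4 called genes of each list, the 5 most abundant DEGs in each direction and the 5 lowest adjusted p of the interaction in each direction. The part of the rule on genes beside the Never ripe locus was not applied, because no source pairs that locus with an identifier, and counts would not show a mutation that leaves the transcript in place. Identifiers followed chromosome order in 1006 of 1024 neighbouring pairs of genes with known position. Promoter sequences were not analysed here.

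The alternatives were DESeq2 1.42.0, RLE size factors, no filter on low counts, a fit of 4 groups, a fit of 29 libraries, no fold threshold, a fold of 2, the replicate number as a block and leaving out each library. The counts per list under each alternative and the fit of replicates 3 and 4 without the block were added after the data were seen.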

Additional observations from a re-analysis of the deposited data

Results flagged for a closer look

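Among 34 groups of 4 libraries looked at, 5 held a library far from the others by Dixon's rule. Chance gives this in about 1 group in 20 only where groups are independent and values normally distributed. All 5 were tapetum genes in CT and most lay in the same library, so they cannot be counted as separate events. Never ripe CT replicate 1 was at 83.2 CPM for MS1 (Solyc04g008420; others 3.31 to 9.07), 870 CPM for CYP703A2 (Solyc10g009390; 23.7 to 162), 740 CPM for CYP704B1 (Solyc01g010900; 14.9 to 101) and 85.6 CPM for WBC27 (Solyc07g065780; 1.22 to 5.92). WT CT replicate 3 was at 34.0 CPM for MS1 (6.75 to 9.38).

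For 49 genes, which are all named genes with a called interaction together with HsfA9 and Hsp90-7, the difference between the lines itself differed between the temperatures by the interaction test of edgeR. Of these, 10 were named because they had the lowest adjusted p of the interaction, so their values describe that choice. They are CAB13 (Solyc12g011450; 2.17 on the log2 scale, more positive in LTMH than in CT), Solyc04g015750 (1.92), Solyc09g090557 (1.45), Solyc02g071020 (2.13), Solyc03g115900 (1.34), Solyc09g084450 (−5.30, more negative in LTMH), Solyc07g006570 (−5.21), Solyc02g063390 (−3.67), Solyc02g071700 (−5.36) and Solyc07g043480 (−2.70).

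Of the rest, the difference was more positive in LTMH for the light-harvesting genes Solyc12g006140 (3.80), Solyc06g069730 (3.40), Solyc07g063600 (2.24) and Solyc03g005775 (1.90), and for Solyc12g013710 (1.84), Solyc10g006900 (1.53) and Solyc07g066150 (0.93) of chlorophyll synthesis and photosystem I. The same direction was seen for CFBP1 (Solyc10g086730; 0.87), Solyc10g054870 (1.47), IAA16 (Solyc01g097290; 1.61), HsfA9 (Solyc07g040680; 2.35), the DnaJ-C gene Solyc09g092260 (1.89), the DnaJ-A gene Solyc05g055160 (0.67), Solyc09g089580 (1.07), Solyc10g050323 (3.201), Solyc11g010930 (1.03), Solyc10g076900 (0.67), Solyc11g065990 (1.51), Solyc09g075750 (1.44), Solyc03g005760 (1.39) and Solyc07g047850 (1.90). It was more negative for JAZ1 (Solyc07g042170; −2.28), JAZ2 (−1.93), JAZ3 (−2.02), JAZ4 (−2.11), JAZ5 (−1.09), JAZ6 (−1.59) and JAZ7 (−2.81), for Solyc09g084465 (−5.11), Solyc09g084460 (−5.81), Solyc09g089530 (−4.50), Solyc03g098790 (−3.65), Solyc01g006400 (−3.33), Solyc11g022590 (−4.47) and Solyc06g005940 (−1.62), and for Hsp90-7 (Solyc04g081570; −1.22), VIF (Solyc12g099190; −1.91), PIRL3 (Solyc08g006970; −0.96) and Solyc06g053710 (−0.88).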

How the results depend on the processing

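Of the 958 DEGs in LTMH, 0 changed direction under any alternative of that comparison. That count says little about stability. The libraries of the lines did not overlap for any of these genes, so leaving libraries out could hardly reverse a sign. The fits with other fold thresholds are the same fit. The 958 DEGs in LTMH became 1384 with DESeq2 (936 shared), 961 with RLE, 910 with no filter, 1337 with 4 groups in one fit and 1190 with 29 libraries. Without a fold threshold there were 2197, and with a fold of 2 there were 554. Leaving out single libraries gave 300 to 1504. The neighbouring DEGs numbered 645 without a fold threshold, beside 234. Of 87 named genes that were called, 85 held with DESeq2, 87 with RLE, 82 with no filter and 41 to 80 with a library left out. With fewer libraries the fits have fewer degrees of freedom. In LTMH the lines share only the replicate numbers 3 and 4. A fit of those 4 libraries with the number as a block called 38 genes, and the same 4 libraries without the block called 15. Never ripe replicate 1 and WT replicate 2 have no partner. The correlation of deviations of same-numbered libraries was 0.14 and 0.43 in LTMH and −0.09 to 0.36 in CT. Different-numbered libraries gave −0.37 to 0.28 in LTMH and −0.40 to 0.41 in CT. The 0.43, between the libraries numbered 4, was the highest value in LTMH. The numbers were not taken as pairs, and so few shared numbers in LTMH cannot decide whether they are. In CT the block gave 2017 DEGs beside 2118, DESeq2 gave 2476 and single libraries left out gave 1872 to 2364. The interaction gave 1704 with DESeq2 beside 1268, and 958 to 1785 with libraries left out. Depth limits the lowest genes, since 110 DEGs had a mean under 1 CPM in the higher line.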

Other observations

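Genes with few or no reads in one line made up a part of the DEGs. In LTMH 32 DEGs had at most 3 reads in each WT library and 33 had at most 3 reads in each Never ripe library. Several genes with a strong difference in CT showed none that passed the test in LTMH. Solyc07g006570 was at 473, 267 and 439 CPM in Never ripe and 502, 538 and 600 CPM in WT in LTMH (log2(FC) −0.52, adjusted p = 0.153 by edgeR) and had a log2(FC) of 4.70 in CT. Solyc02g063390 was at 37.3, 28.9 and 52.3 CPM against 37.7, 45.9 and 45.4 CPM in LTMH (−0.17) and had 3.51 in CT, and Solyc07g043480 had 0.31 in LTMH and 3.02 in CT. Of the abundant DEGs higher in Never ripe, the RNA helicase gene Solyc12g035130 was at 880, 1091 and 913 CPM against 670, 609 and 539 CPM (0.63 ± 0.14), and the DnaJ-A gene Solyc05g055160 at 630, 850 and 959 CPM against 495, 495 and 470 CPM (0.70 ± 0.14). The first was called only without Never ripe replicate 4 when libraries were left out, and the second only without Never ripe replicate 1 or 4, with adjusted p up to 0.134 and 0.119.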
